A study of Mus musculus with 8 samples.

Results

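The state of cardiac fibroblasts after 21 days in osteogenic differentiation medium was set against their state before the medium was added. Both groups held fibroblasts from the hearts of wild-type C57BL/6J mice given as 8 weeks of age. The starting group (day 0, 2 libraries) had not received the medium, and the end group (day 21, 2 libraries) had been in it for 21 days. They are 4 of the 8 RNA-seq libraries of a time course that also has 2 libraries each at day 7 and day 14. All 24015 gene symbols of the table were considered, and 13527 of them, those reaching 10 normalized counts in 2 or more of the 8 libraries, were tested. No library came from fibroblasts kept for 21 days without the medium, so an effect of the medium and an effect of time in culture cannot be told apart. The labels leave unsaid whether the paired libraries of each day are independent cultures or mice, so p-values here reflect only how far these samples differ, a spread that may be technical.

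Cardiac fibroblasts make and maintain the collagen-rich matrix of the heart. Cells taken into culture divide and often turn on the contractile and matrix genes of myofibroblasts, the activated fibroblasts of scars. Osteogenic medium is used to drive mesenchymal cells towards bone formation, in which the transcription factors RUNX2 and SP7 switch on bone matrix genes, and mineral then forms where phosphate is released and inhibitors of crystal growth are removed.

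The day 0 libraries held 21883498 and 13399313 reads assigned to genes and those of day 21 held 17507952 and 19522382, and 15409 to 15850 genes had at least 1 read in each of these 4 libraries. Within a time the 2 libraries correlated at 0.993 (day 0) and 0.990 (day 21) across tested genes, which are not independent replicates, and 287 and 318 genes differed at least 2-fold between them. All values below are normalized counts, that is, the reads of a gene after scaling by the size factor of its library, given for library 1 and then library 2. They are not divided by gene length, so they are compared between times and not between genes. A gene is called changed where the Benjamini-Hochberg adjusted p of limma is below 0.05 over all tested genes, and each difference is given with its standard error on log2(normalized count + 1). In bulk RNA, fewer cells of a type and less RNA per cell cannot be told apart.

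At day 21, 8031 of the 13527 tested genes (59.4%) were called, 4034 of them higher (29.8%) and 3997 lower (29.5%) than at day 0. No called gene had overlapping libraries, but this holds for most tested genes, as 10986 of the 13527 had no overlap. Among the called genes 3238 (23.9% of those tested) had moved at least 2-fold, 1873 up (13.8%) and 1365 down (10.1%). The median difference of all tested genes was 0.00. The 1873 genes that rose at least 2-fold held 5.34 and 5.47% of assigned reads on day 0 and 29.3 and 29.6% on day 21. The 1365 that fell at least 2-fold went from 20.4 and 20.6% of reads to 6.11 and 6.63%. The set of the most-read genes changed with them. Fibronectin (Fn1), a matrix glycoprotein, had the most reads on day 0, 1.77 and 1.91% of all, and 0.357 and 0.558% on day 21. The protease inhibitor Serpina3n had the most reads on day 21, 2.79 and 2.59% of all, against 0.108 and 0.134% on day 0. Only biglycan (Bgn), type III collagen (Col3a1) and Sparc, all matrix proteins, were among the 10 most-read genes at both times.

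**Figure D1:**
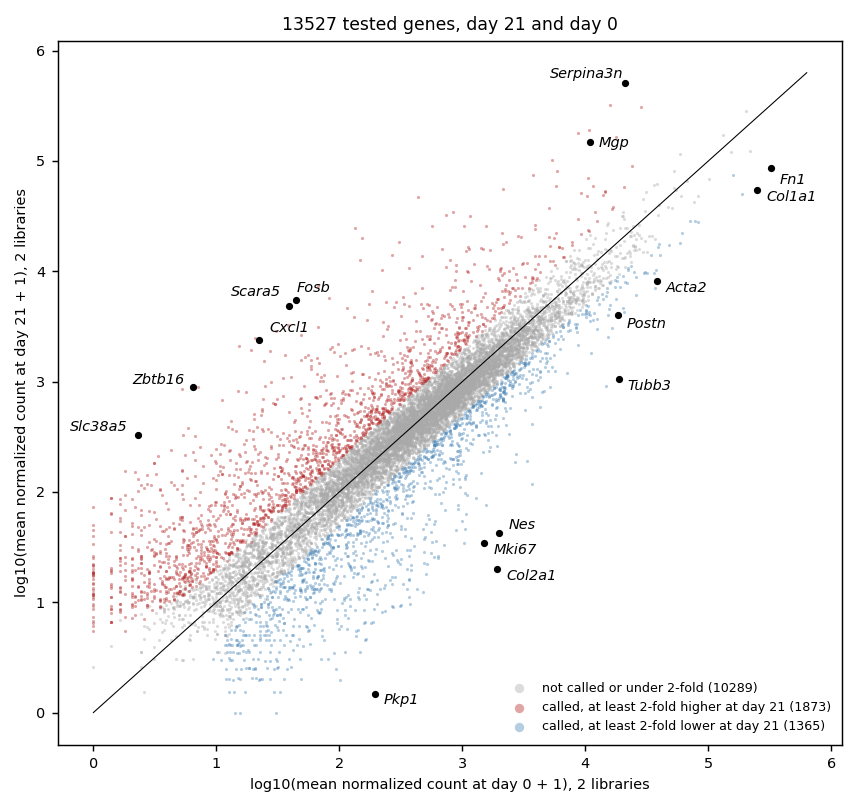
Mean normalized count of each of the 13527 tested genes at day 0 (x axis) and day 21 (y axis), both as log10 of the mean of 2 libraries plus 1, with the line of equality. Red and blue points are the 1873 and 1365 genes called at least 2-fold higher or lower, and black points are named genes, with Zbtb16, Scara5 and Fosb far above the line and Pkp1, Col2a1, Nes and Mki67 far below it.

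Whole groups of genes moved one way. All 30 tested mitosis genes and all 29 DNA replication genes fell, with median differences of -4.25 and -1.94. Of acute-phase genes 15 of 16 rose, of complement genes 21 of 22 and of glucocorticoid response genes 21 of 24, with medians of 4.37, 3.58 and 3.21. Osteoblast regulators, in contrast, had a median of 0.08. With 29.8% of tested genes called higher and 29.5% called lower, a list with members divided in that way does not stand out from the rest of the table.

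**Figure D2:**
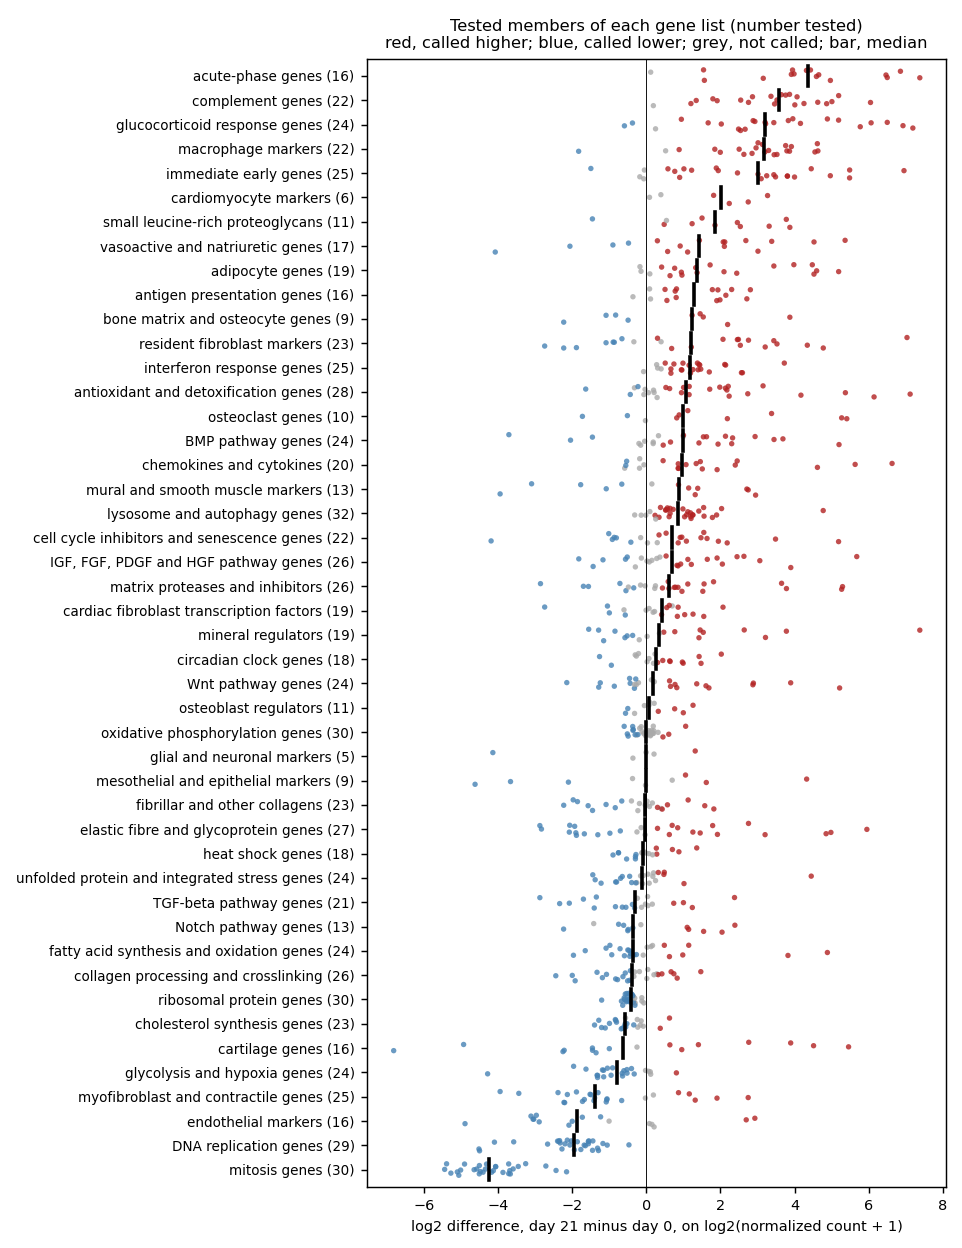
Difference between day 21 and day 0 for each tested member of 46 gene lists (x axis, log2), with lists ordered by their median (black bar) and the number of tested members in brackets. Members called higher are red, called lower blue and not called grey, and the medians run from -4.25 for mitosis genes to 4.37 for acute-phase genes.

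Bone genes did not move together. Of 11 tested osteoblast regulators 4 were called higher, 2 lower and 5 not called, and the 4 became 2 when library 2 of day 0 or library 2 of day 21 was left out. Runx2, the master regulator of the osteoblast lineage, stood at 324 and 244 on day 0 and 197 and 259 on day 21 (log2 difference -0.32 ± 0.20, adjusted p = 0.184). The lower day 0 library lay inside the range of the day 21 libraries. Hand2, a transcription factor of limb and heart development, rose from 975 and 1004 to 2368 and 2368 (log2 difference 1.26 ± 0.09, adjusted p = 8.69e-08). Msx1, a homeobox factor of skull and tooth development, rose from 108 and 96.7 to 190.1 and 222, 2.01-fold. Zfp521, a zinc finger protein that restrains RUNX2, fell from 1404 and 1374 to 865 and 1020.3 (log2 difference -0.56 ± 0.11, adjusted p = 0.000824). Sp7, the factor downstream of RUNX2 that commits cells to the osteoblast fate, had 0 reads in all 8 libraries. Hmgcs1, a cholesterol synthesis gene that most cells use, is also listed at 0 in all 8, so a 0 in this table need not mean that a gene was silent. Both genes were named after their values were seen.

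Among 9 tested bone matrix and osteocyte genes 5 rose and 4 fell, with a median of 1.23. Alpl encodes alkaline phosphatase, which breaks down the mineral inhibitor pyrophosphate and so supplies phosphate. It had 125 and 209 normalized counts on day 0 and 630.2 and 351 on day 21 (2.94-fold, log2 difference 1.53 ± 0.28, adjusted p = 0.000511). The 2 libraries of day 21 were far apart, yet both lay above both day 0 libraries. Alpl had 68.3 and 99.8 on day 7 and 214 and 198 on day 14, and its day 21 level was above both (against day 14, log2 difference 1.19 ± 0.28, adjusted p = 0.00783; against day 7, log2 difference 2.50 ± 0.28, adjusted p = 0.000238). Osteopontin (Spp1), a phosphoprotein that binds mineral, rose from 2388 and 2716 to 8301 and 5839.9 (log2 difference 1.45 ± 0.16, adjusted p = 5.6e-06) and was lower than at day 14 (log2 difference -0.56 ± 0.16, adjusted p = 0.0159). Osteomodulin (Omd), a small proteoglycan of bone, rose from 8.76 and 10.5 to 139.9 and 169, 16.1-fold. Every library of day 21 was above every library of day 0 for these 3 genes.

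The genes for the bulk of bone matrix fell. Col1a1, the larger chain of type I collagen, went from 242711 and 257184 to 44351 and 63744, 4.62-fold lower (log2 difference -2.23 ± 0.18, adjusted p = 3.89e-07). Col1a2, the partner chain, went from 161631 and 153634 to 64490.2 and 85084 (log2 difference -1.09 ± 0.17, adjusted p = 0.000119). Sparc, osteonectin, fell from 224479 and 212300 to 125537 and 120188, 1.78-fold. Markers of mature osteoblasts and osteocytes were at a few reads in these 4 libraries. Osteocalcin (Bglap) had 1 read in all on day 0 and 10 on day 21, a ratio of 10.3 with a 95% exact counting interval of 1.46 to 446, and was too low to be tested. Its relative Bglap2, also too low to be tested, had 2 and 3 reads on day 0 and 1 and 3 on day 21, so it showed no such rise. Bglap2 was named after its values were seen. The osteocyte gene Dmp1 had 2 and 17 reads (ratio 8.74, counting interval 2.08 to 78.0) and was called higher (log2 difference 2.19 ± 0.48, adjusted p = 0.00175). Ibsp, bone sialoprotein, and Mepe, an osteocyte phosphoprotein, had 0 reads in all 8 libraries and were likewise named after their values were seen. These intervals cover counting error only.

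Regulators of mineral had 9 of 19 tested members higher, 7 lower and 3 not called (median 0.35), and the members that rose act in opposite ways on mineral. Inhibitors of calcification were among the largest rises. Matrix Gla protein (Mgp), a vitamin K-dependent inhibitor of vessel and cartilage calcification, rose from 10601 and 11078 to 149665 and 147872, 13.7-fold (log2 difference 3.78 ± 0.13, adjusted p = 2.13e-10). That level was lower than the 224306 and 222564 of day 14 (log2 difference -0.59 ± 0.13, adjusted p = 0.00502). Fetuin-A (Ahsg), which keeps calcium phosphate soluble in serum, rose from 3.18 and 5.23 to 817 and 884, 202-fold (log2 difference 7.38 ± 0.18, adjusted p = 4.36e-11). Its relative Fetub rose from 43.8 and 37.9 to 256 and 263, 6.35-fold. Enpp1, the enzyme that makes pyrophosphate and so restrains mineral, fell from 923 and 1081 to 343 and 335, 2.96-fold (log2 difference -1.56 ± 0.12, adjusted p = 2.6e-07). Tnfsf11 (RANKL), the signal of osteoblast-lineage cells that induces osteoclasts, rose from 14.3 and 20.9 to 176 and 162 (log2 difference 3.21 ± 0.27, adjusted p = 6.89e-07). It stood at 26.4 and 34.8 on day 7 and 130.3 and 79.5 on day 14. Day 21 was above day 7 (log2 difference 2.44 ± 0.27, adjusted p = 0.000212) and the difference from day 14 missed the threshold (log2 difference 0.73 ± 0.27, adjusted p = 0.0568).

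**Figure D3:**
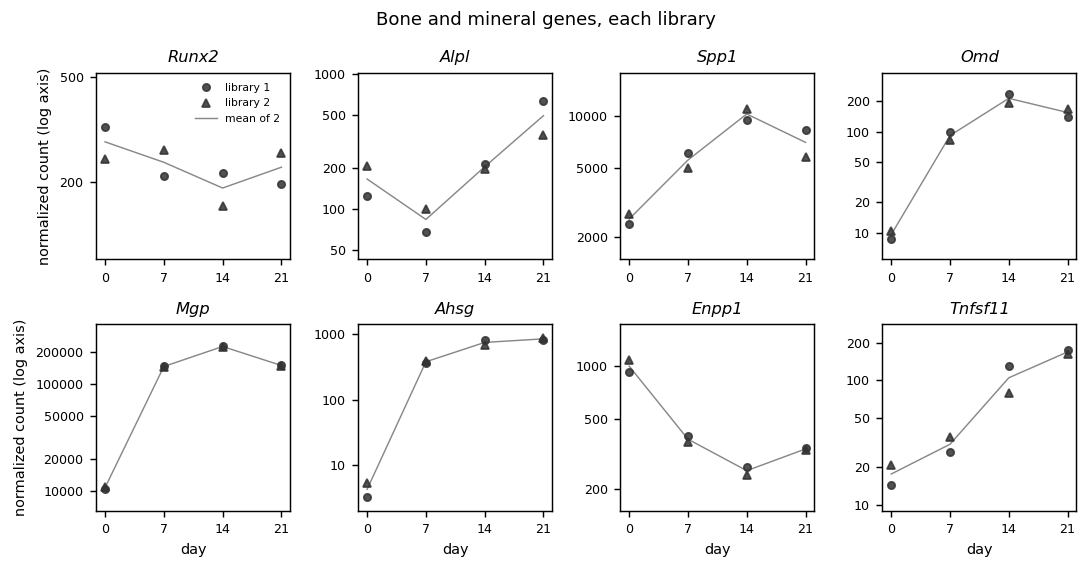
Normalized counts (log axes, a scale per panel) of 8 bone and mineral genes in each of the 8 libraries against day, circles for library 1, triangles for library 2 and a line through the mean of 2. Alpl falls to day 7 and is highest on day 21, Mgp, Spp1 and Omd peak on day 14, Ahsg and Tnfsf11 are highest on day 21, Enpp1 is lowest on day 14, and the Runx2 libraries overlap.

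Genes of osteoclasts, the bone-resorbing cells of the macrophage lineage, had 7 of 10 tested members higher and 2 lower (median 1.00). Calcr, Ocstamp, Dcstamp and Oscar, also on the list, were too low to be tested, with 0 to 9 reads in each library of day 0 and day 21. These untested genes were named after their values were seen. Atp6v0d2, a proton pump subunit, had 2 reads over both day 0 libraries and 133 over both day 21 libraries (ratio 68.4, counting interval 18.6 to 571). The tartrate-resistant phosphatase Acp5 rose from 28.7 and 35.3 to 91.9 and 239 (log2 difference 2.19 ± 0.35, adjusted p = 0.000188). The 2 members that fell became 1 without library 1 of day 0 or library 1 of day 21. Markers of macrophages, a list that shares a member with this one, moved the same way, 20 of 22 of them higher. Their part in these values was not tested.

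Cartilage genes were divided, 7 higher, 8 lower and 1 not called among 16 tested (median -0.63). Col2a1, the main collagen of cartilage, fell 102-fold from 1916 and 1922 to 8.54 and 29.2 (log2 difference -6.82 ± 0.41, adjusted p = 2.65e-08). The day 21 libraries differed from each other more than 3-fold and were both far below day 0. Matn3, a cartilage matrilin, went from 27.9 and 31.4 to 0 and 0 at day 21, at least 19.1-fold lower with a floor of 3 reads over the group. Sox9, the master regulator of cartilage, fell from 4899.7 and 4749.9 to 2151 and 2700.1, 1.99-fold. Cilp, an intermediate-layer cartilage protein also made by fibroblasts, rose from 3.18 and 5.23 to 115 and 116, 27.5-fold. Chondromodulin (Lect1), an inhibitor of vessel growth, had 3 reads over day 0 and 227 over day 21 (ratio 77.8, counting interval 26.3 to 380).

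Adipocyte genes rose in 16 of 19 tested cases, none fell, and the median was 1.37. Pparg, the master regulator of fat cells, rose from 17.5 and 28.8 to 89.7 and 109.9, 4.31-fold (log2 difference 2.10 ± 0.26, adjusted p = 1.95e-05). Fabp4, a fatty acid carrier, rose from 78.8 and 112 to 2323 and 2062 (log2 difference 4.52 ± 0.15, adjusted p = 2.01e-10) and was lower than at day 14 (log2 difference -1.52 ± 0.15, adjusted p = 7.87e-05). Plin4, a lipid droplet coat protein, rose from 25.5 and 19.6 to 515 and 618, 25.1-fold. All day 21 libraries were above all day 0 libraries for these genes. Adiponectin (Adipoq), a hormone specific to fat cells, had 0 reads on day 0 and 12.8 and 35.0 normalized counts on day 21, at least 16.5-fold higher. Plin2, a droplet coat protein of many cell types, stood at 2003 and 2055 and 1704 and 1899 (log2 difference -0.17 ± 0.09, adjusted p = 0.127). Plin1, Cidec, Cidea, Lep and Retn, also on the list, were too low to be tested and had 0 reads on day 0. On day 21 Plin1 had 8 and 25 reads, Cidec 5 and 9, Retn 1 and 4, Lep 0 and 1 and Cidea 0 and 0. These untested genes were named after their values were seen.

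Markers of resident cardiac fibroblasts rose in 14 of 23 tested cases, 7 fell and 2 were not called (median 1.21). Tcf21, a transcription factor of the fibroblast lineage of the heart, rose from 1933 and 2041 to 7865 and 8826, 4.20-fold (log2 difference 2.07 ± 0.10, adjusted p = 3.17e-09). Pdgfra, the platelet-derived growth factor receptor by which these cells are often recognised, rose from 4123 and 4429.6 to 9709 and 10112, 2.32-fold (log2 difference 1.21 ± 0.13, adjusted p = 7.03e-06). Scara5, a ferritin receptor of adventitial fibroblasts, rose from 29.5 and 57.5 to 5373 and 5707, 127-fold (log2 difference 7.04 ± 0.22, adjusted p = 1.29e-10). The 2 libraries of day 21 were close to each other in each case and were above both of day 0. Gelsolin (Gsn), which severs actin filaments, rose 20.5-fold, Dpep1, a membrane dipeptidase, 27.4-fold, and dermatopontin (Dpt), a collagen-binding protein, 11.5-fold. The members that fell included Col1a1, Col1a2 and Fbln2, a matrix glycoprotein (195727 and 178104 to 46395 and 54784). Pi16 (log2 difference -0.90), Thy1 (-0.87) and Lamc1 (-0.66) were called lower as well, and were named after their values were seen. Meox1, a transcription factor linked to fibroblast activation, fell from 87.6 and 81.1 to 11.7 and 11.7, 7.20-fold.

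Myofibroblast and contractile genes fell in 18 of 25 tested cases, 5 rose and 2 were not called (median -1.40). Acta2, smooth muscle actin, the usual marker of myofibroblasts, fell from 37044 and 39457 to 7894 and 8466, 4.68-fold (log2 difference -2.23 ± 0.11, adjusted p = 4.4e-09). Periostin (Postn), a matrix protein of activated fibroblasts, fell from 19665 and 16858 to 3420.0 and 4553, 4.58-fold (log2 difference -2.21 ± 0.14, adjusted p = 3.43e-08). Its day 21 level was between the 7408 and 6759 of day 7 (log2 difference -0.84 ± 0.14, adjusted p = 0.00257) and the 2402 and 2134 of day 14 (log2 difference 0.80 ± 0.14, adjusted p = 0.0015). Calponin (Cnn1) fell 16.9-fold and alpha-actinin-1 (Actn1), which cross-links actin fibres, 5.22-fold. Myocd, the coactivator of smooth muscle genes, was among the 5 that rose, from 2.39 and 1.31 to 20.3 and 15.6, few reads at day 0. For Acta2 the test found no difference between day 21 and the earlier times in medium (against day 14, log2 difference 0.04 ± 0.11, adjusted p = 0.83; against day 7, log2 difference 0.10 ± 0.11, adjusted p = 0.623).

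**Figure D4:**
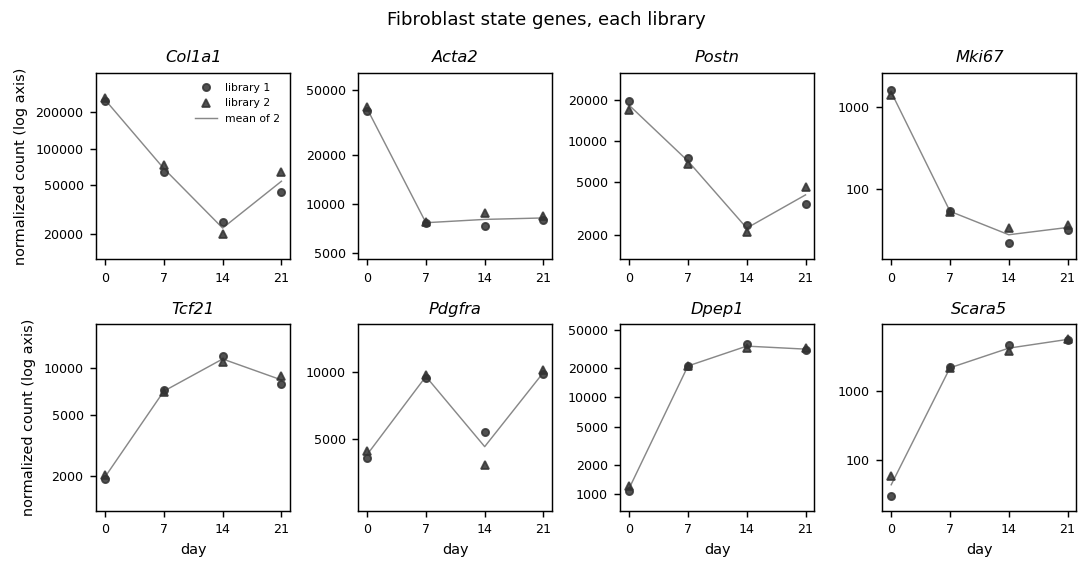
Normalized counts (log axes, a scale per panel) of 8 fibroblast genes in each library against day, circles for library 1, triangles for library 2 and a line through the mean of 2. Col1a1, Acta2, Postn and Mki67 are highest on day 0, while Tcf21, Pdgfra, Dpep1 and Scara5 are higher on day 21 than on day 0; Pdgfra on day 14 is close to its day 0 level.

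Cardiac fibroblast transcription factors had 9 of 19 tested members higher, 4 lower and 6 not called (median 0.41). Besides Tcf21 and Hand2, Tbx20, a T-box factor of the developing heart, rose from 4961 and 4498 to 12597 and 15179, 2.94-fold (log2 difference 1.55 ± 0.13, adjusted p = 4.7e-07). The cardiac homeobox factor Nkx2-5 stood at 20.7 and 19.6 and 10.7 and 15.6 (log2 difference -0.60 ± 0.35, adjusted p = 0.16).

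The matrix genes divided by class. Small leucine-rich proteoglycans, which bind collagen fibrils and set their spacing, rose in 9 of 11 tested cases and fell in 1 (median 1.85). Lumican (Lum) rose from 701 and 669 to 3580.2 and 4417 (5.84-fold), asporin (Aspn) from 178 and 177 to 1963 and 1603 and Ecm2 from 36.6 and 39.2 to 509 and 556 (14.1-fold). Fibrillar and other collagens had 6 of 23 higher, 8 lower and 9 not called (median -0.03). Beside the type I chains, Col5a1, which starts type I fibrils, fell from 37897 and 36541 to 8903 and 11784 (log2 difference -1.86 ± 0.14, adjusted p = 2.34e-07). Col6a3, a chain of the beaded collagen around cells, rose from 357 and 397 to 1087 and 1638 (log2 difference 1.82 ± 0.19, adjusted p = 3.59e-06). Col3a1 stood at 141119 and 121183 and 158763 and 186747 (log2 difference 0.40 ± 0.17, adjusted p = 0.0643), so it missed the threshold in limma although both later libraries were higher; edgeR and DESeq2 called it higher.

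Enzymes that process and cross-link collagen fell in 13 of 26 cases and rose in 6 (median -0.39). Loxl2, a lysyl oxidase that cross-links fibrils, fell from 16672 and 16445 to 2906 and 3174, 5.45-fold (log2 difference -2.45 ± 0.12, adjusted p = 3.21e-09). Fkbp10, a chaperone of collagen chains, fell 3.79-fold. Elastic fibre and glycoprotein genes split, 13 of 27 higher and 11 lower (median -0.03). Ltbp1, which anchors latent TGF-beta in the matrix, fell from 4225 and 4346 to 574 and 592, 7.35-fold (log2 difference -2.88 ± 0.12, adjusted p = 9.54e-10). Spondin 1 (Spon1) rose from 254 and 350.4 to 17339 and 19795, 61.4-fold (log2 difference 5.95 ± 0.17, adjusted p = 9.78e-11), and the embryonic fibrillin Fbn2 rose from 3.18 and 5.23 to 106 and 202. Fn1 fell from 309246 and 334502 to 66708 and 105880, 3.73-fold. Proteases and inhibitors had 15 of 26 higher and 6 lower (median 0.60). Stromelysin (Mmp3) rose from 5309.7 and 6350.2 to 97857 and 65141, 14.0-fold, and gelatinase B (Mmp9) from 3.18 and 1.31 to 61.9 and 228, 64.5-fold. Timp3, a matrix-bound inhibitor of such proteases, fell from 83629 and 82614 to 26255 and 30081, while Timp4 went from 0 and 0 to 34.2 and 42.8, at least 26.1-fold higher.

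Gene length moved with these comparisons. Relative to day 0 the log2 value changed with each doubling of transcript length by -0.177 and -0.107 in the day 21 libraries, by -0.308 and -0.455 in those of day 14 and by -0.004 and -0.023 in those of day 7. With the trend over length and GC content removed, collagens had 9 members higher and 8 lower, elastic fibre and glycoprotein genes 12 and 11 with a median of 0.18, and proteoglycans 8 and 1.

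The cells of day 21 had far lower levels of cell division genes. All 30 mitosis genes were called lower, where 29.5% of all tested genes were. Mki67, the proliferation antigen, fell from 1598 and 1404 to 31.0 and 36.0, 44.8-fold (log2 difference -5.45 ± 0.20, adjusted p = 4.98e-10). Mybl2, a factor that activates mitotic genes, fell from 143 and 150.4 to 2.14 and 2.92, 57.9-fold, and was also lower than at day 14 (log2 difference -2.07 ± 0.32, adjusted p = 0.000927). Cenpf, a kinetochore protein, fell 43.0-fold and Kif23, a motor of cytokinesis, 36.7-fold. The 30 genes together went from 0.116 and 0.113% of reads to 0.00825 and 0.00758%. All 29 DNA replication genes fell too, with Uhrf1, which keeps DNA methylation through replication, 23.5-fold lower and Mcm5, a subunit of the replicative helicase, 12.1-fold lower. Of the mitosis genes 0 were higher and 4 lower than on day 7, and 3 were higher and 4 lower than on day 14. The 4 lower than on day 7 became 1 or 2 without either library of day 7 and 8 without either of day 14. Against day 14 the 4 became 2 without library 2 of day 14 or of day 21 and 7 without library 1 of day 14, and the 3 became 1 or 2 without either library of day 0, library 2 of day 14 or library 2 of day 21.

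Mitotic genes are known for promoters that hold CCAAT boxes and a cell cycle genes homology region (CHR), so the promoters of the genes that fell most are shown. The windows run from 250 bases before the start to 50 after it, 5′ to 3′ on the strand of the gene, and come from RefSeq on GRCm38.p6; capitals mark CCAAT boxes (CCAAT or ATTGG) and CHR matches (TTTGAA or TTCAAA), searched on both strands. Mki67 lies at chr7:135716330-135716629 (minus strand), Cenpf at chr1:189688037-189688336 (minus), Kif23 at chr9:61946750-61947049 (minus) and Mybl2 at chr2:163054385-163054684 (plus).
Mki67: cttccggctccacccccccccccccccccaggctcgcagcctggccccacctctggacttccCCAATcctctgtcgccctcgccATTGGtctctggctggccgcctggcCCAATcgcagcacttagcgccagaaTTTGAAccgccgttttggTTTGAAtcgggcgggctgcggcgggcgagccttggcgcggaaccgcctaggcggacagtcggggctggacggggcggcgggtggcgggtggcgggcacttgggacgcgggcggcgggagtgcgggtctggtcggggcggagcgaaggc
Cenpf: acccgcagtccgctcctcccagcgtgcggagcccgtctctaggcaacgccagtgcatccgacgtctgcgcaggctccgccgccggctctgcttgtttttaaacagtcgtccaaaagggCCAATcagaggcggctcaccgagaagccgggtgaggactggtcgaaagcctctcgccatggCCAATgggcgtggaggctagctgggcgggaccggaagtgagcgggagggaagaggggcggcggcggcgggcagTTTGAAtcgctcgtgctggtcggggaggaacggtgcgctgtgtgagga
Kif23: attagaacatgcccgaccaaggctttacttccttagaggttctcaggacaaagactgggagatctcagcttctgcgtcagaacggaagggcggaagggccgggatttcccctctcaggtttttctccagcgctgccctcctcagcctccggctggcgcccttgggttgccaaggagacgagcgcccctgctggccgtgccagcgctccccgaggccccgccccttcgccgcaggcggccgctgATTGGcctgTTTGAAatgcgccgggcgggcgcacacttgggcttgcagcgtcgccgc
Mybl2: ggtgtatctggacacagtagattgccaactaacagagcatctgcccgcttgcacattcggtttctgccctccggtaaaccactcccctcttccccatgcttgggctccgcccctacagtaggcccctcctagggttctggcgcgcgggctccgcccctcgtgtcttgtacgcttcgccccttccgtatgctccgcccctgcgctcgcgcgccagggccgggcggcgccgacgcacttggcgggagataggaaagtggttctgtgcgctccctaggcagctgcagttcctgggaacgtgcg
Mki67 held 3 CCAAT boxes and 2 CHR matches, Cenpf 2 and 1, Kif23 1 and 1, and Mybl2 held neither.

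Of the 30 mitosis genes 25 had a promoter window. A CCAAT box was in 21 of them (84%), where 37.9% of 27025 windows of all genes held one. A CHR match was in 18 of 25 (72%), against 18.1% of all windows. Both were in 17 (68%), against 7.12%. Of 24 DNA replication windows 16 (66.7%) held a CCAAT box and 3 (12.5%) a CHR match. In the windows shown, no CCAAT box shared a base with a CHR match. A match is a description of the sequence, not a measured site.

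Cell cycle inhibitors and senescence genes had 13 of 22 members higher and 6 lower (median 0.70). Cdkn1c (p57), an inhibitor of cyclin-dependent kinases found in resting cells, rose from 23.1 and 24.8 to 901 and 915, 37.9-fold (log2 difference 5.19 ± 0.13, adjusted p = 4.21e-11). Cdkn2a (p16 and ARF), a marker of senescence, rose from 486 and 481 to 2184 and 2211, 4.54-fold (log2 difference 2.18 ± 0.13, adjusted p = 2.51e-08). Lmnb1, the lamin whose loss marks senescent cells and which dividing cells need, fell from 986 and 986 to 54.5 and 51.6, 18.6-fold (log2 difference -4.19 ± 0.15, adjusted p = 3.31e-10). In each of the 3 genes the groups were far apart. Beside Lmnb1, the members called lower were Trp53 (log2 difference -1.02), Cdkn1a (-0.92), Ccng1 (-0.87), Gdf15 (-0.81) and Mdm2 (-0.42), against the 13 called higher. They were named after their values were seen, and the list did not move 1 way.

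Lists of metabolism and protein synthesis differed in how many of their members fell. Glycolysis and hypoxia genes fell in 19 of 24 cases and rose in 1 (median -0.78). The lactate transporter Slc16a3 fell from 833 and 937 to 45.9 and 42.8, 20.0-fold (log2 difference -4.29 ± 0.16, adjusted p = 5.44e-10). Enolase (Eno1) fell 3.11-fold and the glycolytic dehydrogenase Gapdh 2.52-fold. Cholesterol synthesis genes fell in 15 of 23 cases and rose in 2 (median -0.57), with Fdps, which makes farnesyl diphosphate, from 2439 and 2439.7 to 1096 and 913 (log2 difference -1.28 ± 0.12, adjusted p = 1.49e-06). Against day 14, however, 17 of those 23 were higher and none lower, and the 17 became 11 without library 1 of day 21. The 2 that rose over day 0 became 0 without library 1 of day 0 or library 1 of day 21. Ribosomal protein genes fell in 24 of 30 cases, none rose and the median was -0.42. Without library 2 of day 0 or library 2 of day 21 the 24 became 10. Oxidative phosphorylation genes had 8 of 30 lower, 3 higher and a median of 0.00. The 8 became 16 with the length and GC trend removed (median -0.21) and 2 to 5 when library 1 or 2 of day 0 or library 2 of day 21 was left out, and without the last of these the 3 became 5.

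Fatty acid genes had 14 of 24 lower and 6 higher (median -0.37). The desaturases Scd2 and Fads2, of lipid synthesis, fell 3.12-fold and 3.91-fold. Pdk4, which holds back glucose oxidation when fat is burned, rose from 120.2 and 139 to 3721 and 3973, 29.7-fold (log2 difference 4.89 ± 0.10, adjusted p = 1.89e-11). Lysosome and autophagy genes rose in 27 of 32 cases and none fell (median 0.85), or 1 fell without library 1 or 2 of day 14 or library 2 of day 21. Cathepsin B (Ctsb), a lysosomal protease, rose from 14759 and 14172 to 54475 and 53109.9 (log2 difference 1.90 ± 0.11, adjusted p = 1.56e-08), and the hexosaminidase subunit Hexa from 2763 and 2437 to 10185 and 11039, 4.08-fold. Cathepsin S (Ctss), the protease of antigen-presenting cells, rose 27.8-fold. Unfolded protein and integrated stress genes had 10 of 24 lower and 5 higher (median -0.13), and heat shock genes 7 of 18 lower and 5 higher (median -0.08). The 5 of each list that were higher became 3 without library 2 of day 0, and those of heat shock 2 or 3 in 4 other leave-one-out fits.

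Glucocorticoid response genes, which the glucocorticoid receptor switches on, rose in 21 of 24 cases and fell in 2. What the medium contained is not given in the sources used here. Fkbp5, a chaperone of the receptor, rose from 489 and 574 to 4755 and 5036, 9.21-fold (log2 difference 3.21 ± 0.10, adjusted p = 1.17e-10). Zbtb16 (PLZF), a zinc finger repressor, rose from 3.18 and 7.84 to 849 and 931, 161-fold (log2 difference 7.19 ± 0.29, adjusted p = 9.36e-10). Lipocalin 2 (Lcn2), which binds iron carriers of bacteria, rose from 25.5 and 48.4 to 3248 and 3306, 88.7-fold. The test found no difference in Fkbp5 between day 21 and the earlier times in medium (against day 14, log2 difference 0.15 ± 0.10, adjusted p = 0.261; against day 7, log2 difference -0.15 ± 0.10, adjusted p = 0.355). The 2 members that fell became 1 without any 1 of the 4 libraries. Circadian clock genes had 9 of 18 higher and 2 lower (median 0.27), and the 2 became 1 without library 1 of day 0 or library 1 of day 21. The clock repressors Per1 and Per2 rose 4.08-fold and 2.86-fold, and Per1 is a member of the glucocorticoid list as well.

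Acute-phase genes, most of them for proteins of the innate response that the liver secretes into blood, were among the highest at day 21. The 23 members of the list, 16 of them tested, held 0.149 and 0.178% of reads on day 0 and 3.69 and 3.43% on day 21. Serpina3n alone held 0.108 and 0.134% on day 0 and 2.79 and 2.59% on day 21. Saa1, Saa2, Orm1, Orm2, Orm3, Apcs and Crp were too low to be tested, with 0 to 9 reads per library on day 21. These untested genes were named after their values were seen. Serpina3n rose from 18881 and 23436 to 520981 and 492721, 24.0-fold (log2 difference 4.59 ± 0.18, adjusted p = 6.81e-10). Haptoglobin (Hp), which binds free haemoglobin, rose from 281 and 594 to 49728 and 45386, 109-fold (log2 difference 6.86 ± 0.24, adjusted p = 3.02e-10). Reads of the Serpina3 genes can be assigned to a near-identical neighbour, so the values of Serpina3m (87.6-fold) and Serpina3k (146-fold) are uncertain. Tfrc, the transferrin receptor, stood at 259.6 and 275 and 311 and 269 (log2 difference 0.12 ± 0.13, adjusted p = 0.464).

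Complement genes went from 0.0817 and 0.0906% of reads to 1.03 and 1.26%. C2, of the classical pathway, rose from 5.57 and 22.2 to 803 and 833, 58.8-fold (log2 difference 6.05 ± 0.40, adjusted p = 6.06e-08). Cfb, its counterpart in the alternative pathway, rose from 43.8 and 51.0 to 1468 and 1641, 32.8-fold, and the protease C1s1 rose 29.1-fold. C7, of the membrane attack complex, rose from 17.5 and 41.8 to 2843 and 2894, 96.7-fold, and was above day 14 (log2 difference 1.54 ± 0.30, adjusted p = 0.00327). Antigen presentation genes rose in 13 of 16 cases (median 1.30), with the class I gene H2-K1 from 1943 and 2293 to 9536 and 9141. Interferon response genes rose in 21 of 25 (median 1.19), and this became 13 without library 2 of day 21. Chemokines and cytokines rose in 14 of 20 and fell in 2 (median 0.97), and the 2 became 1 without any 1 of the 4 libraries. Cxcl13, which draws B cells, had 0 reads on day 0 and 40.6 and 58.4 normalized counts on day 21, at least 33.6-fold higher. Il6 stood at 347 and 411 on day 0 and 286 and 384 on day 21 (log2 difference -0.19 ± 0.17, adjusted p = 0.37), though day 21 was above day 14 (log2 difference 1.43 ± 0.17, adjusted p = 0.000237).

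Macrophage markers, some of which are also members of the complement or osteoclast list, moved with these immune genes. Of 22 tested, 20 rose, 1 fell and 1 was not called (median 3.17), and their summed level went from 1440 and 1531 normalized counts to 22653 and 23555. That was 0.00827 and 0.00874% of reads on day 0 and 0.121 and 0.124% on day 21. Lysozyme 2 (Lyz2), whose reads can be shared with Lyz1, rose from 647 and 715 to 16693 and 15255, and the signalling adaptor Tyrobp from 8.76 and 9.15 to 225 and 262. The mannose receptor Mrc1 rose 27.4-fold and the Fc receptor Fcgr3 15.7-fold. The 1 that fell was not called without library 1 of day 0 or library 2 of day 21. The part of macrophage RNA in the immune and osteoclast genes was not tested.

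The clearest feature of day 21 against the earlier times was in immediate early genes, which cells switch on within minutes of a stimulus and which encode the AP-1, EGR and NR4A transcription factors. Against day 0, 21 of 25 were higher and 1 lower (median 3.01), or 2 lower without library 2 of day 21. Against day 14, 22 of 25 were higher and 0 lower (median 1.57), where 20.2% of all tested genes were called higher. Against day 7 the counts were also 22 and 0 (median 1.68), where 5.46% of all tested genes were called higher. Their share of reads was 0.157 and 0.152% on day 0, 0.263 and 0.291% on day 7, 0.268 and 0.320% on day 14 and 0.744 and 0.983% on day 21. Leaving out each library in turn gave 20 to 23 members higher than day 14 and 18 to 22 higher than day 7.

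Fosb, an AP-1 subunit, went from 30.3 and 45.8 on day 0 to 218 and 251 on day 7, 186 and 328 on day 14 and 3974 and 5654 on day 21. Day 21 differed from day 0 by a log2 difference of 6.95 ± 0.26, adjusted p = 4.3e-10, from day 14 by one of 4.26 ± 0.26, adjusted p = 3.41e-06 and from day 7 by one of 4.34 ± 0.26, adjusted p = 2.07e-06. Fos, the founding member of that family, had 561 and 574, 4468 and 5549, 3888 and 5252 and 22002 and 29518 in the same order. Both genes stood above day 0 in all libraries of days 7 and 14 and higher again in both of day 21. Jun, the partner of FOS proteins, took another course with 905 and 858 on day 0, 497 and 591 on day 7, 375 and 450.0 on day 14 and 2333 and 4559 on day 21. Its libraries of days 7 and 14 lay below day 0 and those of day 21 above it (log2 difference 1.89 ± 0.23, adjusted p = 1.62e-05). Nr4a1, an orphan nuclear receptor, had 197 and 244, 766 and 916, 848 and 1096 and 7608 and 12793 in order of day (log2 difference 5.49 ± 0.21, adjusted p = 5.28e-10). Egr2, a zinc finger factor, rose 31.9-fold over day 0 and Atf3, a stress-induced factor of the CREB family, 22.8-fold. Library 2 of day 21 was higher than library 1 in each of Fos, Fosb, Jun, Nr4a1, Egr2 and Atf3, and both were above all 6 other libraries.

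Klf4 and Jund, 2 members that did not differ from day 0 by the test, were nonetheless above day 14. Klf4 had 2264 and 2011 on day 0, 735 and 681 on day 14 and 1602 and 2221 on day 21 (against day 14, log2 difference 1.41 ± 0.14, adjusted p = 7.05e-05). Jund had 4936 and 4829.6, 2135 and 2464 and 4135 and 5223 (against day 14, log2 difference 1.02 ± 0.12, adjusted p = 0.000246).

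**Figure D5:**
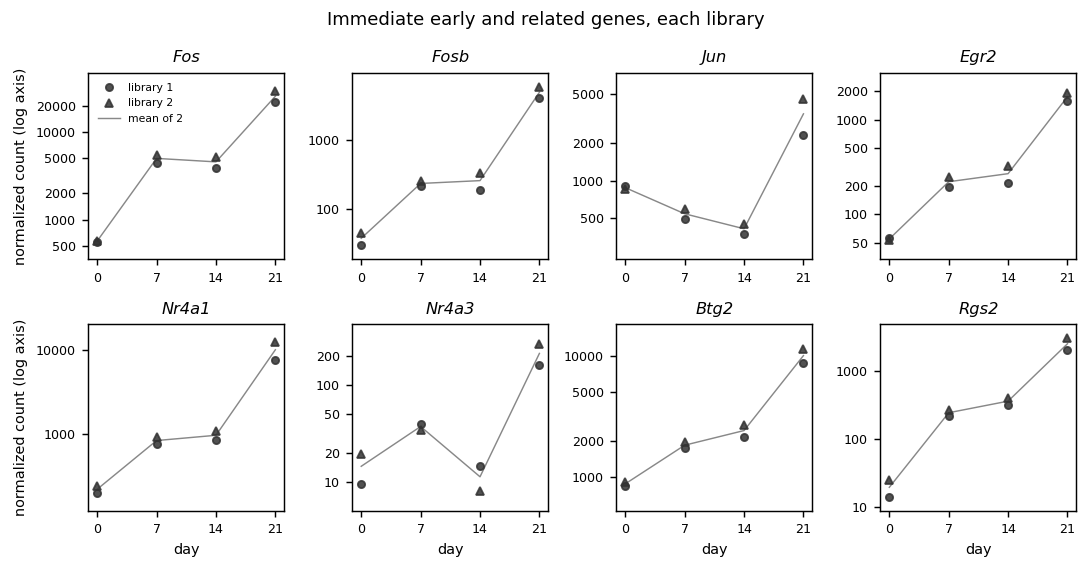
Normalized counts (log axes, a scale per panel) of 8 genes, most of them immediate early genes, in each library against day, circles for library 1, triangles for library 2 and a line through the mean of 2. All 8 are highest in the 2 libraries of day 21; Jun and Nr4a3 show no steady rise before it, while Fos, Fosb, Egr2, Nr4a1, Btg2 and Rgs2 already stand above day 0 at day 7.

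Several genes outside that list were also higher on day 21 than on day 14. Rgs2, which shortens G protein signals, rose from 14.3 and 24.8 on day 0 to 218 and 266 on day 7, 317 and 397 on day 14 and 1980.2 and 2961 on day 21 (log2 difference 6.93 ± 0.24, adjusted p = 2.96e-10). Cxcl1, a chemokine for neutrophils, had 21.5 and 20.9, 161 and 229, 286 and 452 and 1448 and 3348 (log2 difference 6.63 ± 0.32, adjusted p = 4.02e-09). Sfrp2, a secreted modulator of Wnt signals, went from 229 and 222 to 2712 and 4194 (against day 14, log2 difference 2.34 ± 0.18, adjusted p = 1.54e-05), and the Notch target Hes1 from 925 and 798 to 4097 and 4947 (against day 14, log2 difference 1.81 ± 0.14, adjusted p = 1.52e-05).

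Signalling genes followed. In the BMP pathway, the bone morphogenetic signals, 14 of 24 members rose and 3 fell (median 1.00). The ligand Bmp3 rose from 29.5 and 11.8 to 177 and 258 and the antagonist Chrdl1 from 8.76 and 3.92 to 242 and 266, 40.1-fold. The receptor Bmpr1b fell from 29.5 and 45.8 to 3.20 and 0.973, and the target Id4 rose 14.1-fold. In the TGF-beta pathway, which drives fibroblast activation, 11 of 21 fell and 4 rose (median -0.32). The ligand subunit Inhba fell from 974 and 846 to 181 and 176, 5.10-fold, and the co-receptor Tgfbr3 rose from 326 and 345 to 1646 and 1861, 5.22-fold.

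Wnt pathway genes had 11 of 24 higher and 8 lower (median 0.18), and the 8 became 4 without either day 0 library and 5 without library 1 of day 21. The ligand Wnt11 rose from 17.5 and 13.1 to 90.8 and 155, the secreted Dkk3 from 146 and 218 to 7282 and 6102 and the feedback target Axin2 from 7.96 and 2.61 to 36.3 and 45.7. Genes of IGF, FGF, PDGF and HGF signalling had 14 of 26 higher and 5 lower (median 0.68), and the 5 became 3 without library 1 of day 0. Igfbp3, the main carrier of insulin-like growth factors, rose from 221 and 312 to 10055 and 18117, 52.9-fold (log2 difference 5.68 ± 0.22, adjusted p = 6.91e-10). Igfbp6, a carrier of IGF2, rose from 357 and 465 to 8398 and 4421 and was lower than the 24692 and 32567 of day 14 (log2 difference -2.22 ± 0.23, adjusted p = 0.000118). Notch pathway genes had 5 of 13 higher and 6 lower (median -0.36), and the 6 became 3 with the length and GC trend removed, while the 5 became 3 without library 2 of day 21. The receptor Notch4 fell from 1481 and 1589.8 to 304 and 347, 4.71-fold.

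Vasoactive and natriuretic genes rose in 13 of 17 cases and fell in 4 (median 1.43), and the 4 became 1 without library 2 of day 0 and 2 without library 1 of day 21. Angiotensin-converting enzyme (Ace) rose from 719.7 and 950.5 to 30682 and 37916, 41.1-fold (log2 difference 5.36 ± 0.18, adjusted p = 2.27e-10), and angiotensinogen (Agt), from which its substrate is cut, from 80.4 and 86.3 to 2211 and 1703, 23.5-fold. Antioxidant and detoxification genes rose in 18 of 28 cases and fell in 3 (median 1.08), and the 3 became 1 without either day 0 library or without library 2 of day 21. The flavin monooxygenases Fmo2 and Fmo1 rose 132-fold and 69.9-fold, though reads of near-identical family members may be exchanged. Plasma glutathione peroxidase (Gpx3) rose from 9387 and 11858 to 208378 and 173544, 18.0-fold.

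Markers of other cell types were checked against the label. Endothelial markers fell in 10 of 16 cases and rose in 2 (median -1.87). Cdh5, the cadherin of endothelial junctions, went from 177 and 183 on day 0 over 63.8 and 83.8 on day 7 and 14.6 and 10.5 on day 14 to 3.20 and 7.78 on day 21 (log2 difference -4.90 ± 0.34, adjusted p = 1.13e-07). Their summed share of reads was nonetheless 0.0827 and 0.0923% on day 0 and 0.0852 and 0.0977% on day 21. Mural and smooth muscle markers were divided (7 of 13 higher, 5 lower, median 0.87). Of 18 cardiomyocyte markers 12 were too low to be tested, among them the myosin heavy chains Myh6, with 0 reads in all 8 libraries, and Myh7, with 1 read in the 4 libraries (named after their values were seen). Of the 6 tested, 4 were called higher, 0 lower and 2 not called (median 2.03). The 4 became 3 with the length and GC trend removed and 1 when at least 50 in 2 libraries was required. Cardiac troponin T (Tnnt2) was the exception in level, rising from 1207 and 1134 to 10580.3 and 5849 (log2 difference 2.75 ± 0.21, adjusted p = 2.43e-07) and lower than at day 14 (log2 difference -1.69 ± 0.21, adjusted p = 0.00027).

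Mesothelial and epithelial markers had 3 of 9 higher, 3 lower and 3 not called (median -0.02), with mesothelin (Msln) up from 19.1 and 19.6 to 674 and 246 and keratin 19 (Krt19) down from 70.9 and 69.3 to 3.20 and 0.973. Lymphocyte and granulocyte markers were not tested in any case, with 8 of the 14 in the table at 0 in the 4 libraries and the other 6 at a few reads. Of 5 tested glial and neuronal markers 1 rose and 1 fell. The one that fell, Tubb3, a tubulin of neurons that cultured fibroblasts also make, went from 18454 and 18852 to 1034 and 1073, 17.7-fold (log2 difference -4.14 ± 0.09, adjusted p = 1.89e-11).

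Some of the largest single changes belonged to genes of no list. Slc38a5, an amino acid transporter, had 2 reads over day 0 and 645 over day 21 (ratio 332, counting interval 91.5 to 2750). The transporter Slc10a6 rose 146-fold, the secreted protease Adamts15 106-fold and the secreted glycoprotein Lrg1 110-fold. Among falls, Pkp1, a plakophilin of desmosomes, had 392 reads on day 0 and 1 on day 21 (ratio 0.00262, counting interval 6.63e-05 to 0.0147). Nestin (Nes), an intermediate filament of progenitor and activated cells, fell from 1932 and 2067 to 38.5 and 44.7, 48.1-fold (log2 difference -5.56 ± 0.18, adjusted p = 1.79e-10), and was lower than at day 7 (log2 difference -1.56 ± 0.18, adjusted p = 0.000268). Wfdc18, a secreted protein of the whey acidic family, fell 45.8-fold.

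Day 21 was compared directly with the earlier times. Against day 14, 4664 of 13527 genes were called (34.5%), 2735 higher (20.2%) and 1929 lower (14.3%), but 554 of them (4.1%) had moved at least 2-fold. Against day 7, 1182 were called (8.74%), 738 higher (5.46%) and 444 lower (3.28%), and 283 (2.09%) had moved at least 2-fold. The count against day 14 was 2561 without library 2 of day 14 and 2303 without library 2 of day 21. That against day 7 was 262 and 299 without library 1 or 2 of day 7, 521 without library 1 of day 21, 731 and 735 without library 1 or 2 of day 0, and 2169 and 2173 without library 1 or 2 of day 14.

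Matrix genes separated day 21 from day 14. Of 23 collagens 19 were higher than at day 14 and 1 lower, of 27 elastic fibre and glycoprotein genes 21 and 1, and of 21 TGF-beta pathway genes 19 and 1. With the length and GC trend removed these became 13 and 2, 15 and 1, and 15 and 1. Without library 2 of day 14 or library 2 of day 21 the 21 elastic fibre and glycoprotein genes became 12. The 1 collagen that was lower became 2 without either library of day 0 and 0 without library 2 of day 14 or library 1 of day 21, and the 1 TGF-beta pathway gene became 0 without library 2 of day 21. Col1a1 stood at 24910.2 and 19925 on day 14 and 44351 and 63744 on day 21 (log2 difference 1.25 ± 0.18, adjusted p = 0.000609). Fn1 stood at 29427 and 22916 and 66708 and 105880 (log2 difference 1.69 ± 0.21, adjusted p = 0.000246). Both were still below day 0. The largest falls from day 14 included long non-coding RNAs. Neat1, the scaffold of nuclear paraspeckles, went from 6330.3 and 9766 to 1343 and 950.3 (log2 difference -2.80 ± 0.23, adjusted p = 2.28e-05), Malat1, of nuclear speckles, from 2878 and 3122 to 804 and 426 (log2 difference -2.35 ± 0.21, adjusted p = 4.37e-05) and Meg3, an imprinted RNA, from 282 and 323 to 42.7 and 22.4 (log2 difference -3.24 ± 0.27, adjusted p = 2.41e-05). Against day 0, Malat1 was not called by limma.

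Against day 7 the collagens had 0 of 23 higher and 9 lower, which became 1 and 5 with the length and GC trend removed, and the 9 became 1 without either library of day 7, 2 without library 1 of day 21 and 4 without either library of day 0. Ribosomal protein genes had 23 of 30 higher than at day 7 and none lower, and the 23 became 0 without library 1 of day 21 or either library of day 7 and 5 without either library of day 0, with up to 30 in the other fits. With the length and GC trend removed, 8 of the 30 ribosomal protein genes were higher than at day 7 and none lower. Beside the immediate early genes, the largest rises over day 7 were in Cfd (adipsin), a complement protease of fat cells, from 0 and 0 to 40.6 and 73.0 (log2 difference 5.79 ± 0.52, adjusted p = 5.14e-05), and Mmp9, from 5.47 and 2.67 to 61.9 and 228 (log2 difference 4.62 ± 0.53, adjusted p = 0.000268). Dpt rose from 5209.5 and 5364 to 15786 and 16748 (log2 difference 1.62 ± 0.10, adjusted p = 2.1e-06). Among the largest falls were Cdh5 (log2 difference -3.61 ± 0.34, adjusted p = 6.46e-05), Wfdc18 (log2 difference -3.64 ± 0.33, adjusted p = 5.16e-05) and Slc16a3 (log2 difference -1.69 ± 0.16, adjusted p = 6.87e-05).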

How the data were processed

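RNA-seq values of 8 libraries were analysed, 2 each at days 0, 7, 14 and 21. The authors deposited a signal per gene symbol, which is the gene's reads scaled by a size factor of the library. TopHat2 2.0.11, HTSeq 0.6.1 and DESeq are listed, with mm9 as genome, per the submitters' processing notes. Annotation, strand setting and medium composition were not given in the sources used here. The smallest step between values in a library is the worth of 1 read. Division by it gave whole numbers, within 0.01, for all values.

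The deposited values were taken to a log2 scale with a pseudocount of 1. Genes with at least 10 in at least 2 of 8 libraries were fitted with limma 3.58.1 (trend, R 4.3.3) over all 8 libraries, with 4 residual degrees of freedom, and adjusted by the Benjamini-Hochberg method over the 13527 genes. Alternatives were other pseudocounts (0.5 and 8), filters and scalings, edgeR 4.0.16 and DESeq2 1.42.0 on the recovered reads, a replicate block, the removal of a trend over transcript length and GC content (GENCODE M21 by symbol, 98.4% of genes matched), only the 2 times compared, and each library left out. Promoter sequences come from RefSeq tables on GRCm38.p6, not mm9, and no coordinate was carried between builds.

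The 47 gene lists and the comparisons were chosen with earlier results of these data known. Named genes are the 15 largest rises and 15 largest falls against day 0 and the 8 of each against day 14 and day 7 among called genes (a mean of 50 or more at the higher time, no overlap between libraries, no predicted gene models), up to 4 called and 2 uncalled members per list, the 10 most-read genes at day 0 and at day 21, and Runx2, Alpl, Bglap, Spp1, Mgp, Enpp1, Col1a1, Acta2, Postn, Pdgfra, Tcf21, Fkbp5, Pparg, Sox9 and Mki67. Not all genes named by this rule are reported here. With 0 reads in a group, the fold is a bound against a floor of 3 reads over that group; with 1 to 3 reads it is a ratio with a 95% exact counting interval. Figures were drawn with matplotlib 3.10.9 in Python 3.11.15.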

Additional observations from a re-analysis of the deposited data

How the results depend on the processing

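The count of genes called between day 21 and day 0 (8031) ranged from 6416 to 8649 when 1 library was left out and was 8055 in edgeR and 7187 in DESeq2. The count of at least 2-fold changes (3238) ranged from 3121 to 3252 over the same fits and was 2492 with the strict filter (at least 50 in 2 libraries) and 3746 with the loose one (at least 1 in 1 library). Against day 14 the 4664 calls became 2635 when only the 2 times compared were fitted and 2303 to 5750 without 1 library; against day 7 the 1182 calls became 262 to 2173 without 1 library. The replicate block gave 7973 calls against day 0, 3230 of at least 2-fold, 4521 against day 14 and 949 against day 7. Deviations of same-numbered libraries from their group means correlated at -0.036 to 0.074. No pairing by number was seen in these values, but a small shared effect would not show in them, and the labels do not say. The 147 named and tested genes counted here leave out Pi16, Thy1 and Lamc1. Of these 147, 140 kept both their call and the sign of their difference from day 0 under every alternative that tested them. The strict filter tested 139. Over the fits without 1 library the log2 difference of Il6 ran from -0.398 to 0.025, of Klf4 from -0.413 to 0.057 and of Jund from -0.24 to 0.097, the highest without library 1 of day 21, and that of Jund was 0.102 with the length and GC trend removed; the cause was not tested. None of these 3 genes was called against day 0 in the report, though Klf4 was called lower without library 2 of day 21 (-0.413). Bgn lost its call in 8 alternatives, at log2 differences of 0.318 to 0.514, and Il6 and Plin2 were called lower with the trend removed (-0.474 and -0.329). Malat1, not called against day 0 by limma, was called higher in edgeR (0.545) and with the trend removed (0.619). Its log2 difference was 0.924 without library 2 of day 21. Strict filtering left fewer low genes to count, as in the endothelial list. Depth limits genes of a few reads, such as Bglap and Dmp1, to wide counting intervals.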
